A study of Mus musculus with 3 samples.

Results

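The genes that write, copy and remove DNA methylation were followed through the cells of the neonatal mouse testis. The set holds 10 genes listed by symbol: the DNA methyltransferases Dnmt3a, Dnmt3b and Dnmt1 with the cofactor Dnmt3l, the oxygenases Tet1, Tet2 and Tet3, and the transposon silencing cofactors Piwil4, Spocd1 and Morc1. Each has 1 row among the 27998 genes of the count matrix. The matrix holds 14422 cells from 3 libraries, made from testes of males at postnatal day 3 (the dissection protocol gives 3.5 days). The libraries are named Cdk2-Y15S, Cdk2-HET and Cdk2-WT. They come from males homozygous for the YS allele of the cell cycle kinase Cdk2, heterozygous for it, and wild type, all bred from heterozygous parents on a background that mixes B6(Cg)-Tyrc-2J/J with FVB/NJ. YS puts a serine in place of a tyrosine whose phosphorylation restrains the kinase. The allele is carried in every cell, so somatic cells are mutant too. Each genotype has 1 library, and the labels do not say how many animals went into it. No difference between genotypes could therefore be tested, and every interval below covers counting error only.

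The authors assigned 141 germ cells to clusters A to E, 72 of Cdk2-Y15S and 69 of Cdk2-WT, and no heterozygous cell is among them. Cluster E held 21 cells of Cdk2-Y15S, D held 37 of Cdk2-Y15S, C held 8 of Cdk2-Y15S and 5 of Cdk2-WT, B held 6 of Cdk2-Y15S and 28 of Cdk2-WT, and A held 36 of Cdk2-WT. Genotype and cluster therefore overlap only in B and C. The clusters were built by the authors from these cells, so differences between clusters are a description. The other cells are 4331 of Cdk2-Y15S, 4958 of Cdk2-HET and 4992 of Cdk2-WT.

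Male germ cells of the mouse lose nearly all DNA methylation as embryonic precursors and regain it as prospermatogonia around birth. DNMT3A and DNMT3B add methyl groups to unmethylated CpG sites with the help of DNMT3L, a family member without catalytic activity, and DNMT1 copies methylation onto the new strand after replication. The TET enzymes oxidise the methyl group, which opens a way to its removal. At young transposons, piRNAs bound by the nuclear PIWI protein MIWI2, the product of Piwil4, guide de novo methylation. SPOCD1 links MIWI2 to the methylation machinery, and MORC1 is needed for transposon silencing in the male germ line.

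The reads come from the 3′ end of polyadenylated RNA, so they do not show which start site a transcript used. Promoters are given for some of the genes with germ cell results, to show how differently their starts are built. They are Dnmt3l and Piwil4, which were lower in Cdk2-Y15S germ cells, Dnmt3b, which was higher, and Dnmt1. RefSeq (GRCm38.p6) promoters reach from 250 bases before to 50 bases after a start, and 8 of the 10 genes have at least 1. Spocd1 and Morc1 are named only. Each is printed 5′ to 3′ on the gene's strand, with CG dinucleotides in capitals.
Dnmt3l, chr10:78042037-78042336, plus strand: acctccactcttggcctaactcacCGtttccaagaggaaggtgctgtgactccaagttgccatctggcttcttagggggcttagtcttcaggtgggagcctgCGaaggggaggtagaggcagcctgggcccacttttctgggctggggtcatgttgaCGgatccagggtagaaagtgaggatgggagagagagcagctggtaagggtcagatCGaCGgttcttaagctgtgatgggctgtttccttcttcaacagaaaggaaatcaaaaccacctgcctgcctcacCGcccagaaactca
Piwil4, chr9:14740623-14740922, minus strand: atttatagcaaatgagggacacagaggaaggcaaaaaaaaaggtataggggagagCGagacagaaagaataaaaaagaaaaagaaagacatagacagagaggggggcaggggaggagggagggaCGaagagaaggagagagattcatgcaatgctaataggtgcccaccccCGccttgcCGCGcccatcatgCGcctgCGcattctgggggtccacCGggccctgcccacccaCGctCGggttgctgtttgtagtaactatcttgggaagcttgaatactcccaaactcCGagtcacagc
Dnmt3b, chr2:153649199-153649498, plus strand: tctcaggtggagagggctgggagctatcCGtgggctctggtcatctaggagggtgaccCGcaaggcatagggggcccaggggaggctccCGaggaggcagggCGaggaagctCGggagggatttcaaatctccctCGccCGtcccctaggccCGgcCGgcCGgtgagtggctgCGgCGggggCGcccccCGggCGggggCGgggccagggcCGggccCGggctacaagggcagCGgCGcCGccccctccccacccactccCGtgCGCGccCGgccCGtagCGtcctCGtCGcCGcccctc
Dnmt1, chr9:20952574-20952873, minus strand: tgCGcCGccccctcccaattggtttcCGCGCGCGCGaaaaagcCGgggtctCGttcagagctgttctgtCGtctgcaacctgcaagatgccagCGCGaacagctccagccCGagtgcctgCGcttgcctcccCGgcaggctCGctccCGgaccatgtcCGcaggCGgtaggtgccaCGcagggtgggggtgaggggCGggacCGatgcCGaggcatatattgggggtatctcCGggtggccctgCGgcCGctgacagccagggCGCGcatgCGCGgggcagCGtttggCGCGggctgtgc
The Dnmt3l start holds 6 CG dinucleotides and the Piwil4 start 11, in a table of 32851 promoters whose median is 7. At least as many were found in 56.4% of all promoters for Dnmt3l and in 41.4% for Piwil4. The Dnmt3b start holds 30 and the Dnmt1 start 33, numbers reached by 11.7% and 8.56% of promoters. Dnmt3l has 2 further starts in the table with 4 and 3 CG dinucleotides, and Dnmt1 has 2 further starts with 12 and 2. A second Piwil4 start, chr9:14718338-14718637, holds 0. Dnmt3a, also lower in Cdk2-Y15S germ cells but not printed, has starts with 46, 47 and 18. These numbers are reached by 1.65%, 1.44% and 29.7% of promoters. The genes lower in Cdk2-Y15S thus include both CG-poor and CG-rich starts. The letters TTTCCCGC, TTTGGCGC, TTTCGCGC and TTTGCCGC, forms of the E2F motif of cell cycle genes, were searched on both strands. They were found in this Dnmt1 promoter and in none of the other 14 promoters of the set, against 2.26% of all promoters in the table. A match describes letters and not a bound site.

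The gene bodies, from GENCODE M21 on the same build, are Dnmt3a at chr12:3806007-3914443, Dnmt3b at chr2:153649450-153687730, Dnmt3l at chr10:78041947-78063622 and Dnmt1 at chr9:20907209-20959888. Tet1 lies at chr10:62804570-62908996, Tet2 at chr3:133463679-133545139 and Tet3 at chr6:83362373-83459084. Piwil4 lies at chr9:14696230-14740733, Spocd1 at chr4:129929249-129957115 and Morc1 at chr16:48431237-48630900. Several have antisense neighbours (Dnmt3aos, Dnmt3bos, Aire beside Dnmt3l), and no source used here says whether the counting used strand. Dnmt3c is a rodent duplicate of Dnmt3b that methylates young transposons in the male germ line. It has no row under its gene identifier in the count matrix, so it could not be read. Of its 2174 windows of 50 bases, 514 (23.6%) also occur in Dnmt3b transcripts, so the counts of Dnmt3b are uncertain in this respect.

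Germ cells were deep and comparable between libraries. They held 1401292 UMIs in Cdk2-Y15S and 1213081 in Cdk2-WT, with a median of 18461.5 and 16653 UMIs per cell and 10.2% and 11.4% mitochondrial UMIs. The summed level of 8 germ cell markers (Ddx4, Dazl, Mael and others, all detected) was 1802 CPM (UMIs of a gene scaled by all UMIs of the cell set) in Cdk2-Y15S germ cells and 2311 CPM in Cdk2-WT germ cells, against 32.7 CPM in the other cells of Cdk2-Y15S, 74.2 in those of Cdk2-HET and 39.8 in those of Cdk2-WT. Without the other cells that carry at least 2 of Ddx4, Dazl and Mael, these were 12.0, 13.2 and 12.9 CPM. Markers of somatic cells were present in the germ cells too. The 9 stromal markers summed to 284 CPM in Cdk2-Y15S and 145 CPM in Cdk2-WT, and the 10 Sertoli markers to 315 and 276 CPM. The 6 peritubular myoid markers summed to 74.9 CPM in Cdk2-Y15S, with Cnn1 at 0, and 87.4 CPM in Cdk2-WT. Endothelial markers summed to 83.5 CPM in Cdk2-Y15S and 128 CPM in Cdk2-WT, and those of rete or surface epithelium to 278 and 213 CPM. Cluster C carried most stromal signal, 1202 CPM in Cdk2-Y15S and 823 CPM in Cdk2-WT. It also carried most myoid signal, 336 CPM in Cdk2-Y15S and 738 CPM in Cdk2-WT. At least 1 UMI of Mki67 or Top2a, genes of dividing cells, was found in 70 of 72 Cdk2-Y15S and 47 of 69 Cdk2-WT germ cells. The part of these differences in the results below was not tested. Of the barcode sequences, 87 occur in more than 1 library, and none of these belongs to the authors' germ cells.

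Both active de novo enzymes of the set differed between the libraries, in opposite directions. Dnmt3b was higher in Cdk2-Y15S germ cells, with 151 UMIs or 108 CPM (interval 91.3 to 126), against 54 UMIs or 44.5 CPM (33.4 to 58.1) in Cdk2-WT. The log2 ratio was 1.27 (0.82 to 1.75), and the intervals of the levels do not overlap. Dnmt3a was lower, with 102 UMIs or 72.8 CPM (59.4 to 88.4) in Cdk2-Y15S against 147 UMIs or 121 CPM (102 to 142) in Cdk2-WT, a log2 ratio of -0.73 (-1.11 to -0.36). At least 1 Dnmt3b UMI was found in 56 of 72 Cdk2-Y15S and 35 of 69 Cdk2-WT germ cells. With every cell thinned to 10000 UMIs, which left out no cell, the shares were 62.5% in Cdk2-Y15S and 40.6% in Cdk2-WT. For Dnmt3a the thinned shares were 50% in Cdk2-Y15S and 69.6% in Cdk2-WT.

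By cluster, the enzymes followed different lines. Dnmt3b stood at 116 CPM in cluster E, 118 in D and 130.5 in the Cdk2-Y15S cells of C. It stood at 20.2 CPM in the Cdk2-Y15S cells of B (3 UMIs), 28.4 in the Cdk2-WT cells of C (2 UMIs), 45.6 in the Cdk2-WT cells of B and 45.4 in A. The high level was thus found in 3 of the 4 mutant groups and in no wild type group, and the 6 mutant cells of cluster B did not show it. The intervals in E (88.6 to 149) and D (92.4 to 148) do not overlap those in wild type B (29.5 to 67.3) and A (29.9 to 66.1). Dnmt3a was highest in cluster A, at 170.0 CPM (138 to 207), and stood at 75.4 CPM in E, 66.8 in D, 53.9 in the Cdk2-Y15S cells of B and 71.1 in the Cdk2-WT cells of B. In cluster C it was 121 CPM in Cdk2-Y15S and 99.3 CPM in Cdk2-WT. Apart from A and the small cluster C, every group lay between 53.9 and 75.4 CPM.

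**Figure D1:**
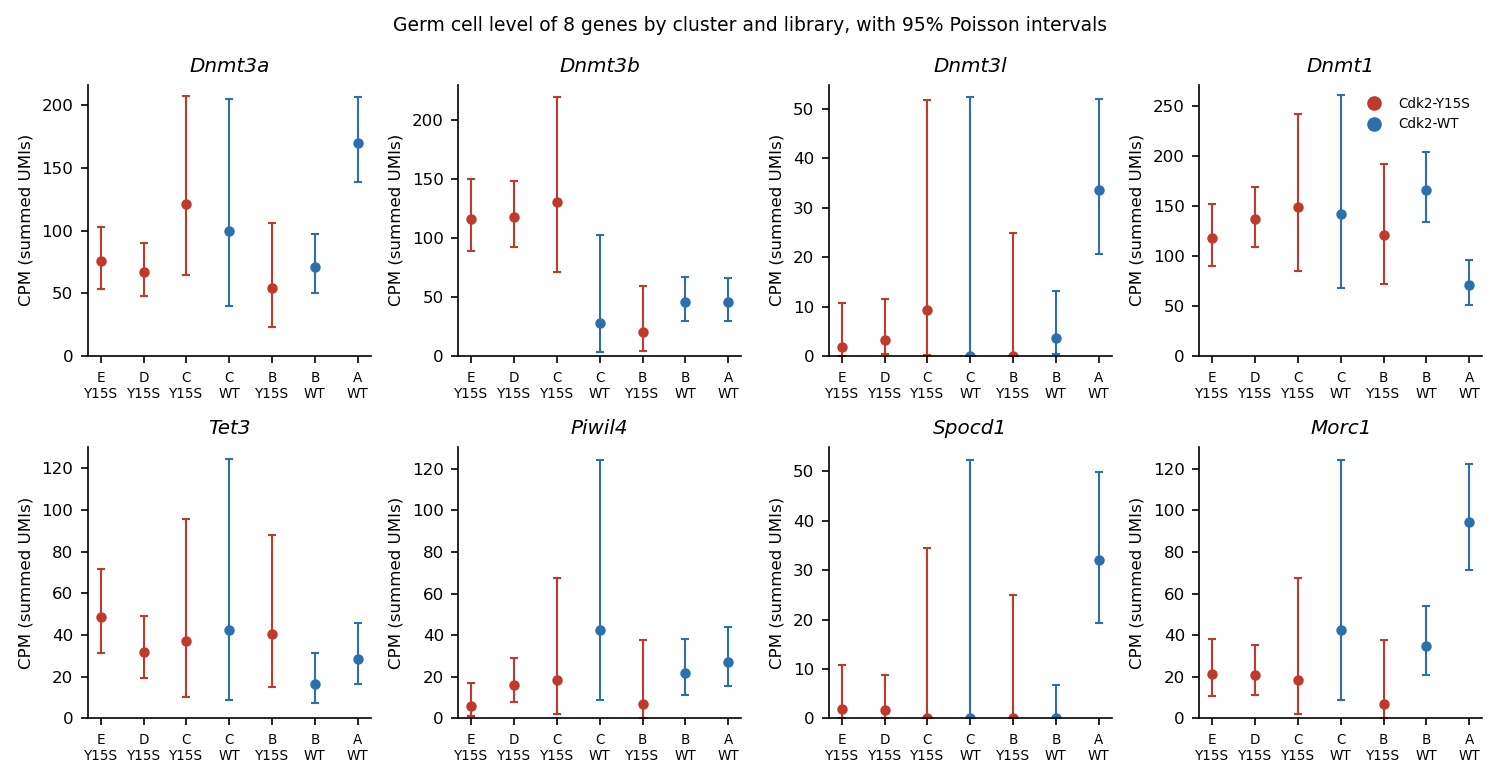
Summed level in CPM (vertical axes, each from 0) of 8 genes in the 7 cluster and library groups of the authors' germ cells, Cdk2-Y15S in red and Cdk2-WT in blue, with exact 95% Poisson intervals as bars. Dnmt3b is at 116 to 130.5 CPM in E, D and mutant C and at 45.6 CPM or less in the other groups, while Dnmt3a, Dnmt3l, Spocd1 and Morc1 peak in cluster A, at 170.0, 33.7, 32.0 and 94.3 CPM.

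Dnmt3l and the cofactors of transposon methylation were lower in the mutant germ cells. Dnmt3l had 4 UMIs in Cdk2-Y15S germ cells and 22 in Cdk2-WT germ cells, 2.85 and 18.1 CPM, with a log2 ratio of -2.53 (-4.66 to -1.11). Spocd1 had 2 UMIs in Cdk2-Y15S and 19 in Cdk2-WT, 1.43 and 15.7 CPM, with a log2 ratio of -3.17 (-6.60 to -1.40). Morc1 had 27 UMIs or 19.3 CPM (12.7 to 28.0) in Cdk2-Y15S and 78 UMIs or 64.3 CPM (50.8 to 80.2) in Cdk2-WT, a log2 ratio of -1.72 (-2.43 to -1.09). Piwil4 had 16 UMIs or 11.4 CPM (6.53 to 18.5) in Cdk2-Y15S and 31 UMIs or 25.6 CPM (17.4 to 36.3) in Cdk2-WT, a log2 ratio of -1.14 (-2.13 to -0.25). The level intervals of Dnmt3l, Spocd1 and Morc1 do not overlap between libraries, and those of Piwil4 do.

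The same genes were also read among cells with a sign of division. In germ cells with a UMI of Mki67 or Top2a (70 of Cdk2-Y15S and 47 of Cdk2-WT), Dnmt3l was at 2.93 CPM (0.80 to 7.51) in Cdk2-Y15S and 10.5 CPM (4.82 to 20) in Cdk2-WT, and Spocd1 at 1.47 CPM (0.18 to 5.30) and 9.36 CPM (4.04 to 18.4). Morc1 was at 19.1 CPM (12.5 to 27.9) in Cdk2-Y15S and 50.3 CPM (36.4 to 67.8) in Cdk2-WT, and Piwil4 at 11.0 CPM (6.16 to 18.1) and 25.7 CPM (16.1 to 39.0). Of these 4 genes, the intervals of Morc1 alone do not overlap between the libraries. Dnmt3b in such cells was at 105 CPM (88.4 to 124) in Cdk2-Y15S and 48.0 CPM (34.4 to 65.1) in Cdk2-WT. Dnmt3a was at 72.6 CPM (59.0 to 88.4) in Cdk2-Y15S and 110 CPM (88.9 to 135) in Cdk2-WT. The intervals of these genes do not overlap either, though those of Dnmt3a nearly touch. The 22 Cdk2-WT cells with neither marker held 36.3 CPM of Dnmt3l, 30.7 of Spocd1, 97.6 of Morc1 and 25.1 of Piwil4. The part of division in the differences between libraries was not tested.

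Cluster A, which holds only wild type cells, carried nearly all wild type transcripts of Dnmt3l and Spocd1. Of the 22 Dnmt3l UMIs of Cdk2-WT, 20 were in cluster A (33.7 CPM) and 2 in B (3.65 CPM). All 19 Spocd1 UMIs of Cdk2-WT were in cluster A (32.0 CPM). Morc1 was between 6.74 and 21.3 CPM in the 4 mutant groups, against 42.6 CPM in wild type C (3 UMIs), 34.6 in wild type B and 94.3 in A. Piwil4 was spread more evenly. In the mutant it stood at 5.80 CPM in E, 15.9 in D, 18.6 in C and 6.74 in B, and in the wild type at 42.6 CPM in C (3 UMIs), 21.9 in B and 26.9 in A. The intervals of all 7 groups overlap.

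The 4 cofactor genes were also found together in single wild type cells. At least 2 of Dnmt3l, Spocd1, Morc1 and Piwil4 were detected in 7 of 72 Cdk2-Y15S and 31 of 69 Cdk2-WT germ cells. Dnmt3l and Spocd1 were detected together in 0 Cdk2-Y15S and 7 Cdk2-WT cells. These lie in cluster A, where all wild type Spocd1 UMIs are and each of the 2 genes was detected in 13 of 36 cells. All 4 genes were detected in 4 cells. Within A, 5 of 36 cells had none of the 4. The most UMIs of Morc1 in 1 cell were 2 in Cdk2-Y15S and 12 in Cdk2-WT. These genes are nearly absent from somatic cells, and the share of other cells with a UMI gives the background. For Dnmt3l it was 5.56% of Cdk2-Y15S germ cells, against 0.350% of Cdk2-Y15S other cells without germ markers (median depth 5681 UMIs), and 21.7% of Cdk2-WT germ cells, against 0.101% of such Cdk2-WT cells (median depth 5540 UMIs). For Morc1 it was 30.6% of Cdk2-Y15S germ cells against 0.0933% of such cells, and 62.3% of Cdk2-WT germ cells against 0.0608%. Thinned to 10000 UMIs, Morc1 was detected in 22.2% of Cdk2-Y15S and 44.9% of Cdk2-WT germ cells, and Piwil4 in 9.72% of Cdk2-Y15S and 23.2% of Cdk2-WT cells. Dnmt3l was then detected in 2.78% of Cdk2-Y15S and 15.9% of Cdk2-WT cells, and Spocd1 in 2.78% and 13.0%.

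The maintenance enzyme Dnmt1 was close to level between the libraries, with 181 UMIs or 129 CPM (111 to 149) in Cdk2-Y15S and 143 UMIs or 118 CPM (99.4 to 139) in Cdk2-WT, a log2 ratio of 0.13 (-0.19 to 0.46). Within the wild type it differed by cluster, at 166 CPM (134 to 204) in B and 70.7 CPM (50.9 to 95.6) in A. In mutant groups it lay between 118 CPM in E and 149 CPM in C. Germ cells with a UMI of Mki67 or Top2a held 131 CPM in Cdk2-Y15S (70 cells) and 146 CPM in Cdk2-WT (47 cells). The 22 Cdk2-WT cells with neither held 50.2 CPM (29.8 to 79.3), and only 2 Cdk2-Y15S cells had neither. A UMI of these genes was found in 28 of 28 wild type cells of B and in 15 of 36 cells of A.

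Among the oxygenases, only Tet3 was well measured in germ cells. It had 55 UMIs or 39.2 CPM (29.6 to 51.1) in Cdk2-Y15S and 29 UMIs or 23.9 CPM (16 to 34.3) in Cdk2-WT, a log2 ratio of 0.70 (0.04 to 1.42). Its level ran from 31.8 to 48.4 CPM over the 4 mutant groups, against 42.6 CPM in wild type C (3 UMIs), 16.4 in wild type B and 28.6 in A. Tet1 had 5 UMIs in Cdk2-Y15S and 8 in Cdk2-WT, and Tet2 had 3 in each library. A difference in Tet1 or Tet2 was not detectable at this depth.

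Counted over the set, 8 of the 10 genes had at least 20 UMIs over both germ cell libraries, and Tet1 and Tet2 did not. Of these 8, 4 were at least 2-fold lower in Cdk2-Y15S, where 8.54% of all 9736 genes at that minimum were, and 1 was at least 2-fold higher, where 3.81% of all genes were. The median log2 ratio of all genes was -0.05. Outside clusters B and C, cluster and genotype cannot be told apart. Without cluster A, the 33 remaining Cdk2-WT cells were set against the same 72 Cdk2-Y15S cells. Dnmt3b kept a log2 ratio of 1.28 (0.71 to 1.95), and Dnmt3a stood at -0.04 (-0.55 to 0.51). Morc1 was at -0.89 (-1.75 to -0.0019), Piwil4 at -1.09 (-2.20 to 0.03) and Tet3 at 0.97 (0.10 to 2.05). Dnmt3l then rested on 4 UMIs in Cdk2-Y15S and 2 in Cdk2-WT, and Spocd1 on 2 and 0. Of the 6 genes at the minimum, 1 was at least 2-fold lower and 1 higher, each against 5.12% of 8739 genes. With clusters B and C alone, which both genotypes share, and each weighted equally, Dnmt3b was at 0.95, under the 2-fold limit. Dnmt3a was at 0.04, Morc1 at -1.35 and Piwil4 at -1.12, all without an interval. The Dnmt3b value averages opposite directions. In B the gene was lower in Cdk2-Y15S (3 against 25 UMIs, 20.2 against 45.6 CPM). In C it was higher (14 against 2 UMIs, 130.5 against 28.4 CPM). Morc1 and Piwil4 rested on 1 Cdk2-Y15S UMI each in B and 2 each in C. Equal weight also leans on cluster C, which holds few cells and the most stromal and myoid marker signal. Without clusters D and E, Dnmt3b was at 0.61.

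**Figure D2:**
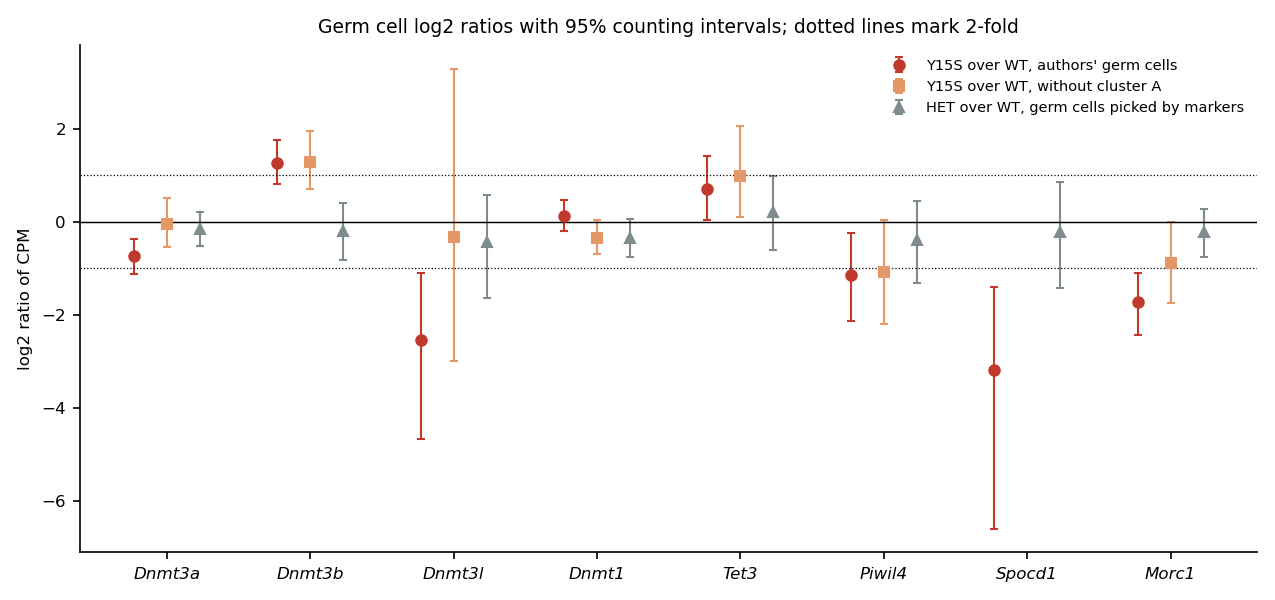
Log2 ratios of CPM (vertical axis) for 8 genes with exact 95% counting intervals, for Cdk2-Y15S over Cdk2-WT in the authors' germ cells (circles) and without cluster A (squares), and for Cdk2-HET over Cdk2-WT in germ cells picked by markers (triangles). Dnmt3b is at 1.27 and 1.28 for the mutant and at -0.19 for the heterozygote, and Spocd1 has no square because its wild type count is 0 there.

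Within the wild type, several of the genes differed between the clusters. With cluster B set over A, Dnmt1 was 1.22 (0.69 to 1.79) on the log2 scale (0.99 in cells thinned to 10000 UMIs, just under 2-fold), Dnmt3a -1.25 (-1.83 to -0.71), Dnmt3l -2.92 (-6.35 to -1.17) and Morc1 -1.42 (-2.28 to -0.67). Spocd1 had 0 UMIs in B and 19 in A, and the interval of its log2 ratio had an upper limit of -2.11. Its level in A was 5.85 times a floor of 3 UMIs in B, a value that leaves out the counting error in A. Dnmt3b was at 0.01 (-0.84 to 0.84), Piwil4 at -0.29 and Tet3 at -0.77. Of 7 genes at the minimum, 3 were at least 2-fold lower (7.33% of 7249 genes) and 1 higher (3.84%). Dnmt3b was thus near a log2 ratio of 0 between wild type B and A, where its partner Dnmt3l and the related Dnmt3a were lower in B.

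Between the mutant clusters no gene at the minimum was 2-fold apart. With E set over D, the log2 ratio was -0.02 (-0.54 to 0.49) for Dnmt3b, 0.18 for Dnmt3a, -0.21 for Dnmt1, 0.60 (-0.30 to 1.53) for Tet3 and 0.05 for Morc1. None of 5 genes at the minimum was 2-fold higher or lower, against 1.42% and 3.33% of 6838 genes. Cluster D of Cdk2-Y15S was also set over cluster B of Cdk2-WT, a pair added after the values were seen. Dnmt3b was at 1.35 (0.70 to 2.08), and it alone of 6 genes was at least 2-fold higher (5.02% of 7054 genes), with none at least 2-fold lower (5.15%). Dnmt3a was at -0.09, Dnmt1 at -0.28, Tet3 at 0.91 (-0.25 to 2.27) and Morc1 at -0.73 (-1.88 to 0.35).

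The heterozygote was reached by picking germ cells of all libraries by markers: at least 2 of Ddx4, Dazl and Mael and at least 500 genes detected. This gave 116 cells of Cdk2-Y15S, 69 of Cdk2-HET and 126 of Cdk2-WT. Dnmt3b was high in the homozygote only. It stood at 102 CPM (87.3 to 118) in Cdk2-Y15S, 39.6 in Cdk2-HET and 45.5 in Cdk2-WT. Dnmt3a stood at 70.7 CPM in Cdk2-Y15S, 109 in Cdk2-HET and 121 in Cdk2-WT, and Dnmt1 at 128, 84.9 and 108 CPM in the same order. The cofactors and Dnmt3l were lowest in the homozygote. Dnmt3l was at 2.87 CPM in Cdk2-Y15S, 12.5 in Cdk2-HET and 17.3 in Cdk2-WT. Spocd1 was at 1.15 CPM in Cdk2-Y15S, 12.5 in Cdk2-HET and 14.7 in Cdk2-WT, and Morc1 at 21.8, 56.6 and 66.7 CPM. Piwil4 was at 10.3 CPM in Cdk2-Y15S, 19.2 in Cdk2-HET and 25.6 in Cdk2-WT, and Tet3 at 37.4, 27.2 and 23.7 CPM.

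For the heterozygote over the wild type, the log2 ratios were -0.19 (-0.83 to 0.40) for Dnmt3b, -0.15 (-0.53 to 0.21) for Dnmt3a and -0.35 (-0.76 to 0.05) for Dnmt1. They were -0.44 (-1.63 to 0.58) for Dnmt3l, -0.21 (-1.43 to 0.85) for Spocd1, -0.23 (-0.75 to 0.26) for Morc1 and -0.39 (-1.33 to 0.44) for Piwil4. None of the 8 genes at the minimum was 2-fold higher or lower, against 2.46% and 1.6% of 9876 genes. Every one of these intervals includes 0, which does not show that the heterozygote is like the wild type. For the homozygote over the same wild type cells, the same 4 genes as in the authors' cells were at least 2-fold lower (9.17% of 10418 genes) and Dnmt3b higher (3.74%). Both ratios share the wild type cells. The picked cells include the authors' 72 Cdk2-Y15S and 69 Cdk2-WT germ cells. The match with the authors' cells was thus largely fixed in advance. Set over the heterozygote instead, the homozygote had a log2 ratio of 1.34 (0.83 to 1.93) for Dnmt3b, -2.04 (-3.99 to -0.47) for Dnmt3l, -3.18 (-6.65 to -1.24) for Spocd1 and -1.37 (-2.02 to -0.74) for Morc1. Among the 6 genes at the minimum here, Dnmt3b was at least 2-fold higher (3.34% of 9790 genes) and Morc1 lower (9.16%).

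Part of the picked cells lie outside the authors' germ cells, 44 of Cdk2-Y15S and 57 of Cdk2-WT, and were shallower, with a median of 6191.5 and 5320 UMIs. In them Dnmt3b was at 0.63 (-0.29 to 1.62), an interval that includes 0. Dnmt3a was at -0.95 (-1.79 to -0.18), Morc1 at -1.17 (-2.37 to -0.14) and Dnmt1 at 0.68 (-0.05 to 1.46). Spocd1 had 0 UMIs in Cdk2-Y15S and 4 in Cdk2-WT. Of 4 genes at the minimum, 1 was at least 2-fold lower (9.09% of 5346 genes) and none higher (5.61%). The 69 picked heterozygous cells, with a median of 12456 UMIs, were also set over these 57 shallower wild type cells, which are only the remainder of the wild type picks, so the sets are unlike. They had 0 of 6 genes 2-fold higher (4.17% of 7726 genes) and 0 lower (2.06%).

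Outside the germ line, the set divided into genes that were nearly silent and genes that were in use. The other cells without germ markers held 0 Spocd1 UMIs in Cdk2-Y15S, 1 in Cdk2-HET and 3 in Cdk2-WT, and 4, 4 and 3 Morc1 UMIs. For Piwil4 they held 11 UMIs in Cdk2-Y15S, 7 in Cdk2-HET and 5 in Cdk2-WT, and for Dnmt3l 15, 10 and 5. In the wild type, germ cells were higher than these cells by a log2 ratio of 9.07 (7.68 to 11.59) for Morc1, 7.10 (5.84 to 8.93) for Piwil4, 7.06 (5.48 to 9.64) for Spocd1 and 6.61 (5.28 to 8.48) for Dnmt3l. Dnmt3b was higher in germ cells by 3.72 (3.41 to 4.02) in Cdk2-Y15S and 2.39 (1.93 to 2.81) in Cdk2-WT, and Dnmt1 by 2.09 and 1.75. Dnmt3a was near level in Cdk2-Y15S, at -0.12 (-0.43 to 0.16), and higher in germ cells of Cdk2-WT, at 0.89 (0.63 to 1.13).

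Of the oxygenases, Tet2 was lower in germ cells of both libraries, at -2.64 (-5.15 to -1.31) in Cdk2-Y15S and -2.13 (-4.64 to -0.79) in Cdk2-WT. Tet1 was at -2.02 (-3.78 to -0.92) in Cdk2-Y15S and -0.49 (-1.80 to 0.42) in Cdk2-WT, and Tet3 at -0.22 (-0.65 to 0.16) in Cdk2-Y15S and -0.62 (-1.23 to -0.11) in Cdk2-WT. Of 8 genes at the minimum in Cdk2-Y15S, 4 were at least 2-fold higher in germ cells (25.1% of 13896 genes) and 2 lower (27.3%). Of 10 in Cdk2-WT, 6 were higher (30% of 13841 genes) and 1 lower (22.8%). These shares show that a 2-fold difference between germ and other cells was common among all genes.

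In all other cells together, no gene at the minimum of 20 UMIs differed 2-fold between genotypes. Among the 6 genes with over 100 UMIs in each library, Tet1 differed most, with 427 UMIs or 15.7 CPM (14.2 to 17.2) in Cdk2-Y15S, 385 UMIs or 12.0 CPM in Cdk2-HET and 288 UMIs or 9.79 CPM in Cdk2-WT. The log2 ratio over Cdk2-WT was 0.68 (0.46 to 0.90) for Cdk2-Y15S and 0.30 (0.07 to 0.52) for Cdk2-HET. Tet2 was at 0.31 (0.10 to 0.51) for Cdk2-Y15S and 0.22 (0.02 to 0.43) for Cdk2-HET, and Tet3 at 0.30 (0.19 to 0.42) and 0.14 (0.02 to 0.26). Dnmt3a was at 79.5 CPM in Cdk2-Y15S, 75.3 in Cdk2-HET and 66.3 in Cdk2-WT, with ratios of 0.26 (0.17 to 0.35) and 0.18 (0.10 to 0.27). Dnmt3b was at 9.06, 8.90 and 9.01 CPM, so the difference in germ cells was not seen there (0.01, -0.25 to 0.26). Dnmt1 was at 31.5 CPM in Cdk2-Y15S, 35.7 in Cdk2-HET and 35.7 in Cdk2-WT. None of 9 genes at the minimum passed 2-fold for Cdk2-Y15S, against 3.43% of 14620 genes higher and 1.63% lower, nor for Cdk2-HET, against 3.01% of 14869 genes higher and 0.78% lower. Cells with germ markers held most of the UMIs of Morc1 (15 in Cdk2-Y15S, 54 in Cdk2-HET and 29 in Cdk2-WT before their removal). Without the cells that carry germ markers, Dnmt3l was at 1.61 (0.16 to 3.51) for Cdk2-Y15S, 1 of 7 genes past 2-fold higher (3.74% of 14406 genes), with 0 lower (1.45%). The median of all genes was 0.06 for Cdk2-Y15S and 0.07 for Cdk2-HET.

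To see which cells carried this, 4184 cells of Cdk2-Y15S, 4751 of Cdk2-HET and 4755 of Cdk2-WT were clustered without the 10 genes. Clusters were named from marker lists as Sertoli-like (1575, 1901 and 2169 cells in the order Cdk2-Y15S, Cdk2-HET, Cdk2-WT), interstitial stroma-like (1588, 1587 and 1465) and peritubular myoid-like (744, 805 and 709). Sertoli cells nurse the germ cells inside the tubule, myoid cells wrap it, and stroma lies between tubules. Sertoli-like cells of the libraries sat partly in different clusters, one with 56, 646 and 730 cells and another with 438, 44 and 6.

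In Sertoli-like cells Tet3 and Dnmt3a were higher in the mutant. Tet3 was at 65.1 CPM (60.5 to 69.9) in Cdk2-Y15S, 54.4 (50.6 to 58.4) in Cdk2-HET and 44.6 (41.2 to 48.2) in Cdk2-WT. Dnmt3a was at 99.2 CPM (93.6 to 105) in Cdk2-Y15S, 86.9 (82.1 to 92.0) in Cdk2-HET and 75.6 (71.2 to 80.2) in Cdk2-WT. For both genes the 3 intervals do not overlap, and the heterozygote lay between the homozygotes. The log2 ratio of Cdk2-Y15S to Cdk2-WT was 0.54 (0.39 to 0.70) for Tet3 and 0.39 (0.27 to 0.51) for Dnmt3a. There were 5 Sertoli-like clusters with at least 100 cells of both libraries, which leaves out the unevenly filled pair above. Tet3 was higher in Cdk2-Y15S in 5 of 5 (0.21 to 0.86) and Dnmt3a in 5 of 5 (0.20 to 0.71). The clusters are parts of the same libraries and are not replicates. Some intervals included 0, as for Tet3 at 0.21 (-0.35 to 0.77) and Dnmt3a at 0.20 (-0.09 to 0.49). Tet1 was at 0.48 (0.12 to 0.84) for Cdk2-Y15S and 0.06 (-0.31 to 0.43) for Cdk2-HET. Dnmt1 and Dnmt3b did not follow, at -0.02 (-0.20 to 0.16) and -0.01 (-0.34 to 0.32).

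In the stroma Tet1 stood out. It was at 20.5 CPM (17.7 to 23.7) in Cdk2-Y15S, 16.2 (13.7 to 19.0) in Cdk2-HET and 11.6 (9.33 to 14.3) in Cdk2-WT, with log2 ratios to Cdk2-WT of 0.82 (0.45 to 1.20) and 0.48 (0.10 to 0.87). It was higher in Cdk2-Y15S in 3 of 4 stroma-like clusters with at least 100 cells of both libraries (-0.32 to 1.59). Tet2 was at 16.5 CPM in Cdk2-Y15S, 17.5 in Cdk2-HET and 12.4 in Cdk2-WT. Dnmt1 was lower in the mutant stroma, at 20.6 CPM (17.8 to 23.8) in Cdk2-Y15S, 27.4 (24.1 to 30.9) in Cdk2-HET and 28.5 (24.9 to 32.5) in Cdk2-WT, a log2 ratio of -0.47 (-0.76 to -0.18). It was lower in Cdk2-Y15S in all 4 clusters of this class that held 100 cells of both libraries. The interval excluded 0 only in the cluster at -0.70 (-1.27 to -0.14). It included 0 in the others, as at -0.06 (-0.59 to 0.46). Tet3 was level, at 0.07 (-0.19 to 0.34).

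In myoid-like cells Dnmt3a was lowest in the wild type. It was at 70.4 CPM (62.2 to 79.3) in Cdk2-Y15S, 78.2 (70.3 to 86.9) in Cdk2-HET and 55.9 (48.5 to 64.3) in Cdk2-WT. Of the 2 clusters with at least 100 cells of both libraries it was higher in Cdk2-Y15S in 1. The log2 ratios of the other 5 genes at the minimum had intervals that included 0. No gene of the set passed 2-fold in a class. The backgrounds for Cdk2-Y15S over Cdk2-WT were 3.34% of 12268 genes higher and 1.61% lower in Sertoli-like cells, 2.43% of 12186 and 1.35% in stroma, and 2.27% of 10759 and 1.24% in myoid-like cells. Those for Cdk2-HET over Cdk2-WT were 1.5% and 1.03%, 1.29% and 0.996%, and 1.56% and 0.68% in the same classes.

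Dnmt3b also marked cell types. It was at 12.3, 12.2 and 12.3 CPM in Sertoli-like cells of Cdk2-Y15S, Cdk2-HET and Cdk2-WT, and between 3.13 and 4.26 CPM in stroma-like and myoid-like cells of the 3 libraries. The small endothelial-like class held 31.7 CPM in Cdk2-Y15S (43 cells), 24.3 in Cdk2-HET (34 cells) and 48.6 in Cdk2-WT (27 cells), on 12, 5 and 10 UMIs. The few Dnmt3l UMIs of the named somatic classes were mostly in the stroma, with 11 in Cdk2-Y15S, 8 in Cdk2-HET and 4 in Cdk2-WT, while the larger Sertoli-like class held 1, 0 and 1.

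**Figure D3:**
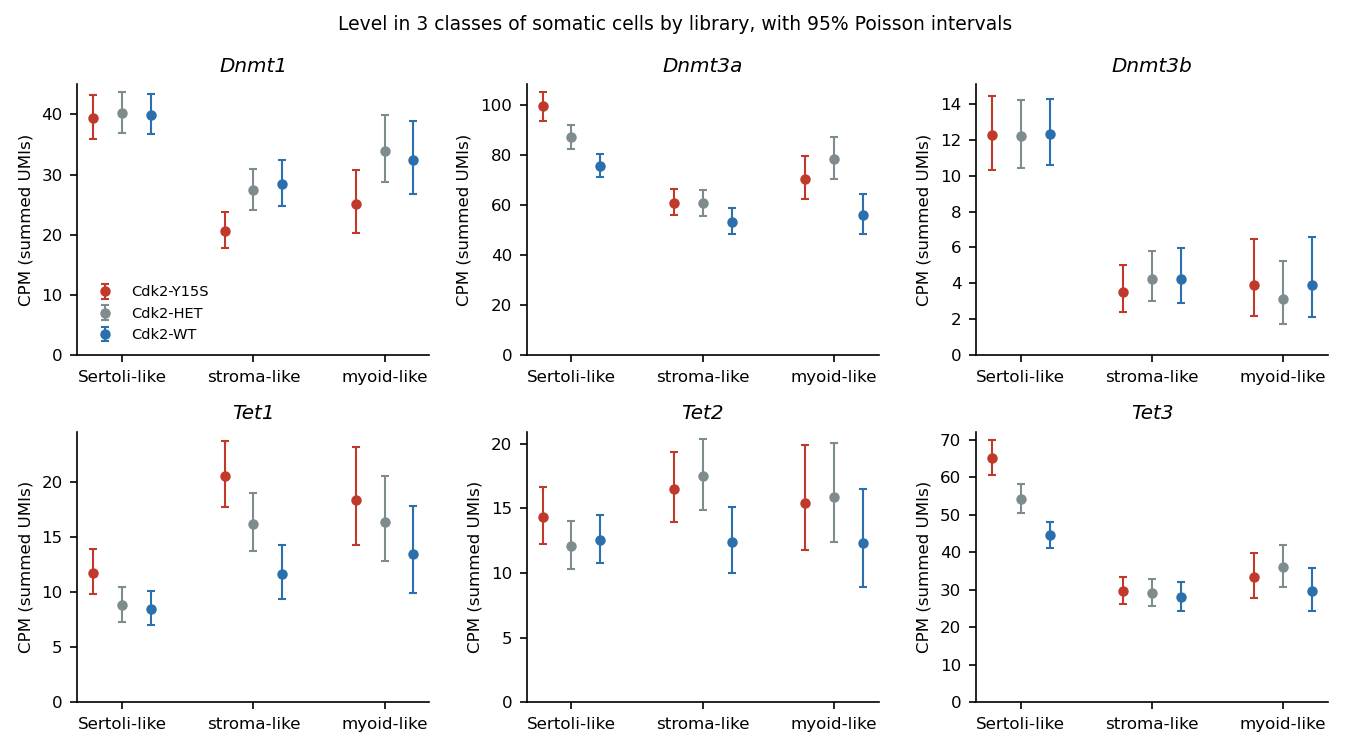
Summed level in CPM (vertical axes, each from 0) of 6 genes in 3 classes of somatic cells, with Cdk2-Y15S, Cdk2-HET and Cdk2-WT from left to right in each class and exact 95% Poisson intervals. Tet3 and Dnmt3a are highest in Cdk2-Y15S and lowest in Cdk2-WT in Sertoli-like cells, as is Tet1 in stroma-like cells, and Dnmt3b is alike in the 3 libraries at about 12.3 CPM in Sertoli-like cells.

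Dnmt1 was higher in cells with markers of cell division in the 3 large somatic classes of all 3 libraries. In Sertoli-like cells with a UMI of Mki67 or Top2a it was at 50.9 CPM in Cdk2-Y15S, 51.2 in Cdk2-HET and 51.5 in Cdk2-WT, and in those with neither at 27.7, 30 and 31.6 CPM. In the stroma the cells with such a UMI held 41.6 CPM in Cdk2-Y15S, 53.6 in Cdk2-HET and 48.5 in Cdk2-WT, and the rest 15.6, 18.2 and 21.8 CPM. The myoid-like cells gave 47.3, 65.7 and 51.1 CPM with such a UMI and 17.3, 17.9 and 22.4 CPM without. None of the 9 pairs of intervals overlaps. In a smaller class named from erythroid markers, Dnmt1 of Cdk2-WT was lower in cells with such a UMI. Sertoli-like clusters also differed. A cluster with Rrm2 and Tk1 among its top genes held 80.1, 84.7 and 95.9 CPM in Cdk2-Y15S, Cdk2-HET and Cdk2-WT. A cluster with Ube2c and Top2a among them held 43.5, 37.8 and 39.4 CPM in the same order. Cells with such a UMI were deeper, for example a median of 8046.5 against 5844 UMIs in Sertoli-like cells of Cdk2-Y15S. They made up 14.8% of stroma-like cells in Cdk2-Y15S, 19.9% in Cdk2-HET and 19.4% in Cdk2-WT, beside the lower Dnmt1 in the mutant stroma. Among stroma-like cells with neither marker, Dnmt1 was at 15.6 CPM (12.9 to 18.8) in Cdk2-Y15S and 21.8 CPM (18.2 to 26) in Cdk2-WT, and these intervals overlap at their ends. The intervals of Dnmt3a overlapped in all 9 pairs, at 99.9 and 98.5 CPM with and without in Cdk2-Y15S Sertoli-like cells and 76.6 and 75.0 CPM in those of Cdk2-WT.

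**Figure D4:**
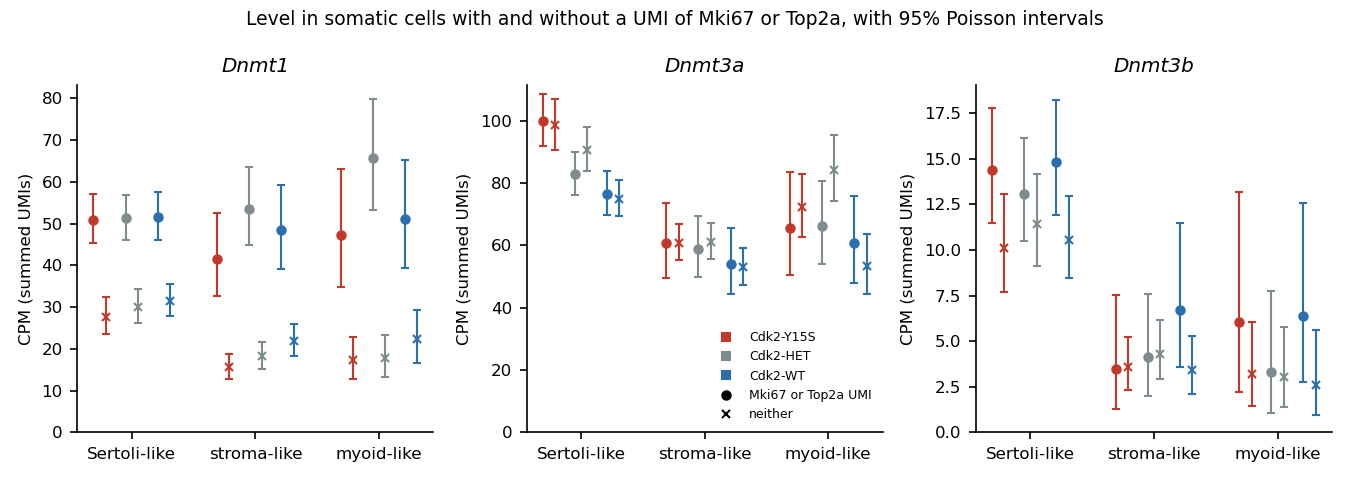
Summed level in CPM (vertical axes, each from 0) of Dnmt1, Dnmt3a and Dnmt3b in somatic cells with (filled circles) and without (crosses) a UMI of Mki67 or Top2a, by class and library, with exact 95% Poisson intervals. Dnmt1 is higher with the markers in all 9 pairs, for example 50.9 and 27.7 CPM in Sertoli-like cells of Cdk2-Y15S, while the intervals of Dnmt3a overlap in each pair.

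Partners of the set were read in the authors' germ cells from 6 lists. The piRNA-directed silencing list holds genes of piRNA production, loading and silencing. It leaned to lower values in Cdk2-Y15S, with 10 of its 16 genes below 0. Its median log2 ratio was -0.48 beside -0.05 for all genes. Only Asz1, a mitochondrial piRNA factor, was at least 2-fold lower, at -1.12 (38.5 against 84.1 CPM, from 54 UMIs in Cdk2-Y15S and 102 in Cdk2-WT), and the highest was Pld6, the nuclease that cuts piRNA precursors, at 0.91. The list shares Ddx4, Mael, Piwil2 and Tdrd1 with the germ cell markers, whose summed level was also lower in Cdk2-Y15S. With clusters B and C alone, each weighted equally, the list's median was -0.01, as was that of all genes.

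The medians of the other 5 lists lay between -0.25 and -0.02. Of 9 maintenance partners, 1 was at least 2-fold lower: Pcna, the replication clamp, at -1.39 (24 UMIs in Cdk2-Y15S and 55 in Cdk2-WT). The highest was Cdca7, a partner of the remodeller HELLS, at 0.61 (0.29 to 0.94), and the list's median was -0.05. Of 10 genes for repair of oxidised bases, Gadd45b, a stress-induced gene linked to demethylation, was at 2.96 (1.23 to 6.38) with 22 UMIs in Cdk2-Y15S and 2 in Cdk2-WT, and Polb, a repair polymerase, was lowest at -0.42, with a median of -0.02. Of 12 genes for methyl donor and cofactor supply, Ahcy, which clears the product of methylation, was at 3.08 (1.37 to 6.5) with 24 UMIs in Cdk2-Y15S and 2 in Cdk2-WT, and Ahcyl1 was at -1.16, with a median of -0.07.

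None of the 13 genes for histone marks that steer de novo methylation passed 2-fold. They ran from -0.96 for the demethylase Kdm1b to 0.58 for the methyltransferase Ehmt1, with a median of -0.13. Among 6 readers of methylated CpG none passed either, and they ran from -0.92 for Zbtb38 to 0.82 for Mbd3, with a median of -0.25. That median was -0.47 at a minimum of 50 UMIs, where the piRNA list stood at -0.53, and 0.41 when only B and C were used at equal weight. Over the 6 lists, 3 genes were at least 2-fold lower and 2 higher.

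**Figure D5:**
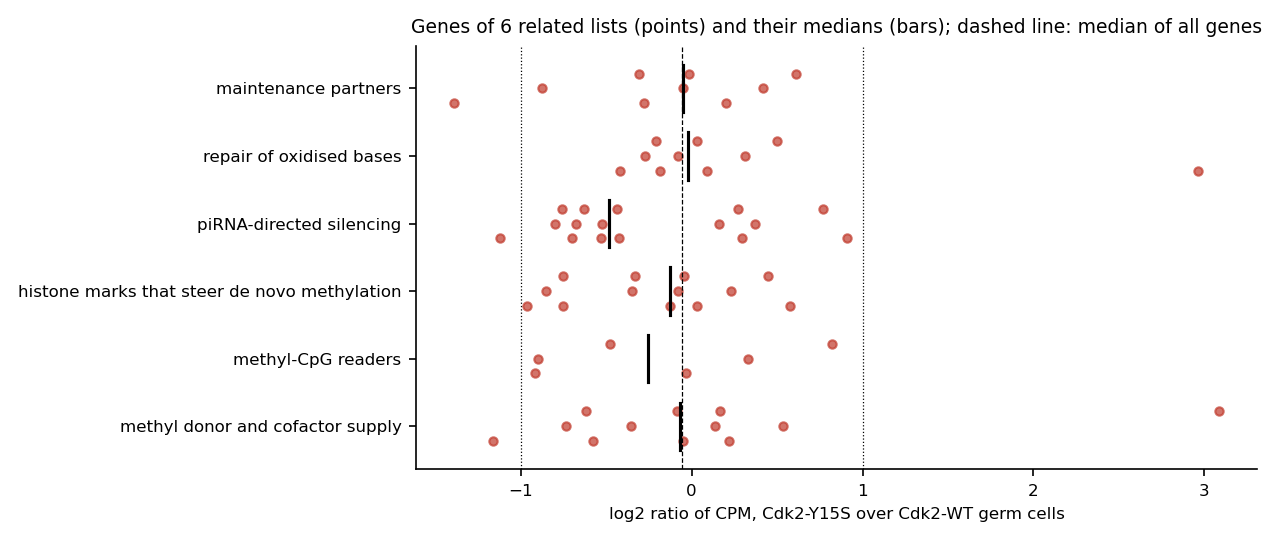
Log2 ratio of Cdk2-Y15S over Cdk2-WT germ cells (horizontal axis) for the genes of 6 related lists with at least 20 UMIs (points), the median of each list (bars), the median of all genes (dashed line) and 2-fold limits (dotted lines). The piRNA list has the lowest median, -0.48, and Gadd45b and Ahcy lie apart at 2.96 and 3.08.

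The genes whose level was most like a member's over the 7 cluster and library groups were found by Pearson's r of log2(CPM + 10), over 4360 genes with at least 100 UMIs. For Dnmt3b these were Kif3a (r = 0.97), Zdhhc12 (0.97) and Cops6 (0.96). For Dnmt1 they were Kif2c, a mitotic kinesin (0.98), Gt(ROSA)26Sor (0.95) and Nln (0.95), and for Dnmt3a Rbfox2, Zfp330 and Ggnbp2 (0.97, 0.97 and 0.96). Dnmt3l was most like Gm13242, Cdc42bpa and Lap3 (0.98, 0.93 and 0.92), and Spocd1 most like Hbs1l, Dnajb4 and BC004004 (0.97, 0.96 and 0.95). Morc1 was most like Zfp207, Ndufaf2 and Usp8 (0.97, 0.97 and 0.96). Piwil4 was most like Tsc22d2, the germ cell helicase Ddx4 and 2810474O19Rik (0.99, 0.98 and 0.98), and Tet3 most like Rab6a, Cyth2 and Etfa (0.94, 0.93 and 0.92). Within the set, Dnmt3l was close to Spocd1 (0.89) and Dnmt3a (0.84), and Dnmt1 ran opposite to Spocd1 (-0.93). These values describe 7 groups that share 2 libraries, some with few cells. With 4360 genes searched over 7 groups, every member had a high best r, so the named genes are a description only. Spocd1 had 21 UMIs here, 19 of them in cluster A, so its r values mostly restate that group.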

How the data were processed

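Testis cells of the 3 libraries were profiled with 10x 3′ v2 chemistry, in which UMIs are counted. The authors deposited raw UMI counts per gene and cell and a count table of 141 germ cells with clusters. The submitters' processing notes list mm10, Seurat and Cell Ranger (2.1.0), with no settings. No source used here gives the annotation or says how germ cells were chosen and clustered. The germ cell table equals the matrix for all 10439 genes matched by symbol. It holds 8 of the 10 genes, and Tet1 and Tet2 were read from the matrix.

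UMIs were summed per library and cell set and divided by all UMIs of the set (CPM), with exact 95% Poisson intervals. Log2 ratios used 0.5 added UMIs and exact conditional binomial intervals. Genes with at least 20 UMIs over both groups were counted, and 2-fold was the limit. Cells with at least 500 genes, 10% or less mitochondrial UMIs and no Scrublet doublet call (expected rate 6%, 53, 83 and 85 called in Cdk2-Y15S, Cdk2-HET and Cdk2-WT) were clustered with scanpy 1.11.5 on 2000 variable genes without the 10 genes, 30 components, 15 neighbours and Leiden (leidenalg 0.10.2) at resolution 1. Named genes were the 10 genes, the genes of each related list past 2-fold or else its highest and lowest, and the 3 genes most alike in pattern. The genes and lists were chosen with earlier results of these data known. Scripts (Python 3.11.15, numpy 2.4.6, scipy 1.17.1, pandas 2.3.3) were tested on simulated data. Alternatives covered added UMIs, denominators, mitochondrial limits, clusters left out, thinning, ambient RNA and cell picking. With 1 library per genotype no test between genotypes was made.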

Additional observations from a re-analysis of the deposited data

Results flagged for a closer look

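Dnmt3a had a log2 ratio of Cdk2-Y15S over Cdk2-WT of -0.73 in germ cells and of 0.26 in all other cells, opposite directions in the 2 cell sets. The difference between them was not tested, since each genotype has 1 library. Without cluster A, which holds wild type cells only, the germ cell ratio was -0.04.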

How the results depend on the processing

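No paired analysis was possible because each genotype has 1 library, and for the same reason no replicate could be left out. Of 84 recomputed counts of genes past 2-fold, 67 stayed within 1.5 times the reported count and 17 did not. Of 412 recomputed single values, 386 stayed within their counting interval (for list medians, within the standard deviation of the list's genes). Of the rest, 23 moved further and 3 changed sign. A change of sign was counted only for values reported at least 2-fold apart, so smaller values that crossed 0 are among the others. No UMI minimum was set for the single values. Some rested on few or 0 UMIs, as Spocd1 in Sertoli-like cells of Cdk2-Y15S and Cdk2-WT, and their very wide or unlimited intervals could hardly be left. The somatic classes were recomputed at a Leiden resolution of 0.5, which kept nearly the same cells. The 386 is thus no measure of how firm the values are. The choice of germ cell clusters mattered most. Without cluster A, 1 gene and not 4 was at least 2-fold lower in Cdk2-Y15S, and 3 were higher when no minimum was set. Of these, Tet2 (3 against 0 UMIs) and Spocd1 were under 20 UMIs, which left 1 (Dnmt3b). Spocd1 was then at 1.14, on 2 UMIs in Cdk2-Y15S and 0 in Cdk2-WT. With clusters B and C alone, weighted equally, 0 genes were at least 2-fold higher. Dnmt3b was at 0.95, an average of a lower level in B and a higher one in C. Dnmt3l (0.57) changed sign on 1 UMI in Cdk2-Y15S and 2 in Cdk2-WT. Spocd1 had 0 UMIs in these clusters in both libraries. Its change of sign (0.0043) thus comes from the added UMIs alone and shows no direction. Without clusters D and E, 0 were higher and Dnmt3b was at 0.61. With at most 10% mitochondrial UMIs 2 genes were higher (Dnmt3b and, under 20 UMIs, Tet2), and in thinned cells 2 (Dnmt3b and Tet3).

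For cluster B over A, 0 genes were at least 2-fold higher under the mitochondrial limit and 0 in thinned cells, in place of 1 (Dnmt1). Dnmt1 was at 1.95 under that limit, on fewer than 20 UMIs, and at 0.99 in thinned cells. For cluster D over wild type B, 2 were higher without the cell with most UMIs. In all other cells of Cdk2-Y15S, 1 gene (Dnmt3l) was higher without germ-marker cells, and 1 (Dnmt3l) in cells kept by a minimum of 500 genes and the 10% mitochondrial limit. That last filter gave 2 (Dnmt3l and Morc1) in Cdk2-HET. Picked germ cells outside the authors' table gave 1 lower and 0 higher for Cdk2-Y15S, and the mitochondrial limit gave 1 lower (Spocd1) for Cdk2-HET. Of the related lists, 6 genes were lower with B and C weighted equally, and 0 higher at 50 UMIs. The median of the methyl-CpG readers was 0.41 with B and C weighted equally, a change of sign. The cause of these shifts was not tested. Depth limits Tet1, Tet2, Dnmt3l and Spocd1 most, which have few UMIs in mutant germ cells.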
